A study of Homo sapiens with 27 samples.

Results

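Pseudouridine (Ψ), the C-glycoside isomer of uridine, was compared between HEK293T cells lacking PUS1 and wild-type HEK293T cells at single tRNA sites. The members are the tRNA sites listed for both genotypes with at least 20 covering reads in every treated library: 734 of 740 listed sites, made up of 701 of 705 cytosolic and 33 of 35 mitochondrial ones. HEK293T is a human embryonic kidney cell line. In PRAISE, the assay used, a bisulfite-type reagent turns Ψ into an adduct that reverse transcriptase skips, so the level at a site is the percentage of covering reads with a deletion there. The PUS1KO group has genotype PUS1 KO and the WT group is unedited HEK293T, each with 2 treated libraries and 1 untreated library, out of 27 samples in the series. HEK293T cells of genotype PUS7 KO (PUS7KO) and TRUB1 KO (TRUB1KO), with as many libraries each, served as further comparisons. All were small RNA that had been demethylated with AlkB. The labels describe the treated pairs as technical replicates and do not say how many knockout clones were used, so p-values measure technical spread only.

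PUS1 is a stand-alone pseudouridine synthase found in nuclei and mitochondria. It is known for modifying positions 27 and 28, at the top of the anticodon stem, and loss-of-function variants of its gene cause a mitochondrial myopathy with sideroblastic anaemia. Other enzymes act nearby: members of the PUS3 family on 38 and 39, PUS7 on 13 and 35, and the TRUB family on 55. Human RPUSD proteins are related to bacterial RluA enzymes, whose targets include the anticodon stem-loop.

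The listed mitochondrial sites at positions 27 and 28 are shown in their tRNA genes, and only that of mt-TRNI had too few reads to be tested. Each is the GENCODE 29 gene sequence on GRCh38, read 5′ to 3′ on the strand of the gene, with the pseudouridylated T of position 27 or 28 in capitals. Where the capitals cover 2 letters, the deletion falls in a T run of that length and cannot be placed on one base. The deposited coordinates fell on T at all 35 listed mitochondrial sites. The deposited site number within the tRNA matched the coordinate at 32 of the 35, and the coordinates were used.
mt-TRNC (MT-TC, chrM:5761-5826, minus strand, position 27&28): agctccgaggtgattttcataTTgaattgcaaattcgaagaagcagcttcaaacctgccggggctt
mt-TRNE (MT-TE, chrM:14674-14742, minus strand, position 28): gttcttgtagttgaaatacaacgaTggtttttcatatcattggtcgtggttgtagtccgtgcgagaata
mt-TRNF (MT-TF, chrM:577-647, plus strand, position 28): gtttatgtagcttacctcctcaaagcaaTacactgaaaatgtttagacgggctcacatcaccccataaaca
mt-TRNH (MT-TH, chrM:12138-12206, plus strand, position 27): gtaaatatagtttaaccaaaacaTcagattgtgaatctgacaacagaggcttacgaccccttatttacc
mt-TRNI (MT-TI, chrM:4263-4331, plus strand, position 27&28): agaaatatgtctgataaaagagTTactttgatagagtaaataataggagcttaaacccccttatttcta
mt-TRNK (MT-TK, chrM:8295-8364, plus strand, position 27&28): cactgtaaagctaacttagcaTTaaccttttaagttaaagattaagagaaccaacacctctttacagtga
mt-TRNL1 (MT-TL1, chrM:3230-3304, plus strand, position 27): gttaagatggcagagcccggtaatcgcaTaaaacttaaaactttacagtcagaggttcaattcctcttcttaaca
mt-TRNL2 (MT-TL2, chrM:12266-12336, plus strand, position 27&28): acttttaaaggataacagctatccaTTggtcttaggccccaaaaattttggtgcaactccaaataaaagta
mt-TRNM (MT-TM, chrM:4402-4469, plus strand, position 27): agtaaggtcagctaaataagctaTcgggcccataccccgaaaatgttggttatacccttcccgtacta
mt-TRNN (MT-TN, chrM:5657-5729, minus strand, position 28): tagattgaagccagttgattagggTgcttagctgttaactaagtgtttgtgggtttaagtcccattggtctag
mt-TRNS1 (MT-TS1, chrM:7446-7514, minus strand, position 28): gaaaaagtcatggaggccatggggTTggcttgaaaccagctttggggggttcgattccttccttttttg
mt-TRNY (MT-TY, chrM:5826-5891, minus strand, position 27&28): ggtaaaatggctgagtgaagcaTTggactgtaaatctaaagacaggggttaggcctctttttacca
At 12 tRNAs the capitals stand near the start of the anticodon stem, preceded by a in all but mt-TRNI, mt-TRNN and mt-TRNS1, which have g. No cytosolic tRNA sequence was used here, so the cytosolic members below are given by name and position.

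PUS1KO cells had lost nearly all Ψ at mitochondrial positions 27 and 28. All 11 tested sites fell by at least 10 percentage points, against 36.4% of the 33 mitochondrial sites tested that were lower, and the share of the WT level left was at most 2.95%. Their mean level was 0.937% ± 0.154 in PUS1KO and 65.8% ± 1.11 in WT (SD, n = 2 libraries each). Calls of a fall or rise needed a 10-point difference and an adjusted p under 0.05 in a quasi-binomial test moderated with limma.

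The leucine tRNA mt-TRNL1 had 2.62% and 2.11% in PUS1KO libraries, against 97.6% and 97.8% in WT libraries at position 27. The methionine tRNA mt-TRNM had 0% and 2.11% in PUS1KO, against 80.3% and 76.1% in WT. In the phenylalanine tRNA mt-TRNF, none of 444 and 456 PUS1KO reads at position 28 carried a deletion, against 75.6% and 71.4% in WT. Libraries of PUS1KO and WT did not overlap in any of these, but neither did they at 90.9% of the 33 mitochondrial sites tested. In mt-TRNF, 900 reads without a deletion allow a level of up to 0.333% by counting error. The histidine tRNA mt-TRNH had 0.399% and 0% in PUS1KO against 80.0% and 80.2% in WT, and the lysine tRNA mt-TRNK 0.509% and 0.769% in PUS1KO against 80.0% and 77.7% in WT. Levels of mt-TRNL2, mt-TRNC and mt-TRNY lay between 0.811% and 1.87% in PUS1KO libraries and between 65.9% and 72.2% in WT libraries. Intermediate WT levels were found in mt-TRNE, with 0.265% and 0% in PUS1KO and 48.9% and 48.7% in WT, and mt-TRNS1, with 1.26% and 1.04% in PUS1KO and 38.8% and 39.4% in WT. None of these 7 tRNAs kept more than 2.95% of its WT level. The lowest WT level among the 11 sites belonged to the asparagine tRNA mt-TRNN. It had 0% and 1.11% in PUS1KO and 19.3% and 20.4% in WT, with 2.80% of the WT level left (95% interval 0.276 to 28.2%). The untreated PUS1KO library had a median of 0.162% at these sites, and both treated libraries exceeded the untreated one at 6 of the 11. Relative to the median site, the 11 sites had medians of 1.47 and 1.61 times the WT coverage in treated PUS1KO libraries. The median was 0.833 times in the untreated one. Single sites ranged in treated coverage from 0.708 times at mt-TRNM to 16.9 times at mt-TRNL2, with 10.0 at mt-TRNC and 0.907 at mt-TRNL1. The part of coverage in the falls at the 11 sites was not tested. At the 3 of these sites where treated coverage, relative to untreated coverage, moved by less than 1.5 times, the median share left was 2.80%. The 12th listed site, 27 and 28 of mt-TRNI, was not tested: it had 0 deletions in 44 and 32 PUS1KO reads but only 4 and 9 reads in WT, with 75.0% and 66.7% deleted.

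**Figure D1:**
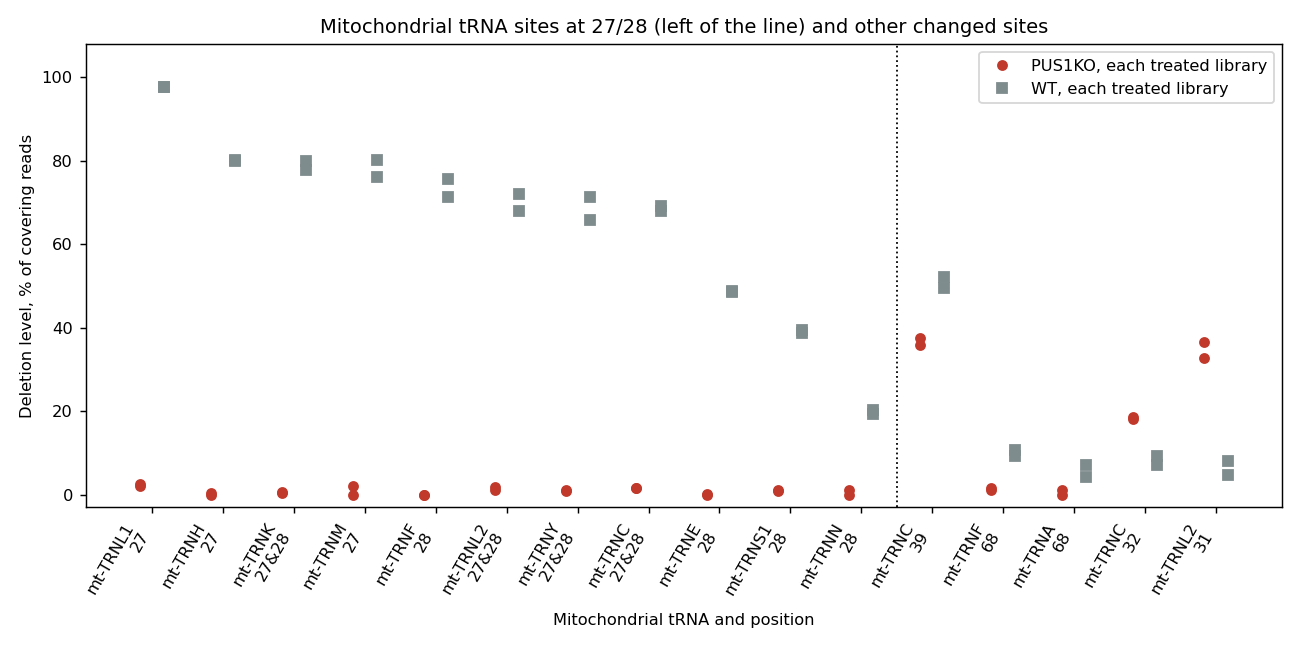
Deletion level in each treated library (percent of covering reads) at mitochondrial tRNA sites, PUS1KO as circles left of WT as squares. The 11 sites at positions 27 and 28, left of the dotted line, lie between 0% and 2.62% in PUS1KO and between 19.3% and 97.8% in WT; right of the line are the 5 other changed sites.

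Outside 27 and 28, 1 mitochondrial site fell by 10 points: position 39 of mt-TRNC, the cysteine tRNA, at 35.8% and 37.6% in PUS1KO against 52.3% and 49.6% in WT (adjusted p = 3.23e-07). A second rule, which lets low sites count, asked for at most 50% of the WT level left at the same adjusted p. It was met by 39.4% of the mitochondrial sites, the 11 above and position 68, in the acceptor stem, of 2 tRNAs. In mt-TRNF (coordinate 642 of chrM) position 68 had 1.67% and 1.28% in PUS1KO, against 10.9% and 9.37% in WT, so that 14.6% of the WT level was left (95% interval 10.502 to 20.64%, adjusted p = 3.44e-07). Both PUS1KO libraries lay below both WT libraries, and the untreated libraries had 0.604% in PUS1KO and 1.09% in WT. The deposited site number within mt-TRNF, 71, did not match coordinate 642, which was used. The alanine tRNA mt-TRNA (coordinate 5592) had 0% and 1.11% in PUS1KO and 7.08% and 4.26% in WT. That call rests on 90 to 141 reads per library, its interval runs from 0.917 to 103.7% of WT, and it was lost without PUS1KO replicate 1 or either WT library (adjusted p 0.0903 to 0.162) and with the replicate block (0.108).

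Both mitochondrial rises lay in the anticodon loop or stem, among 6.06% of sites called higher and 6.06% with at least 2 times the WT level. Position 31 of mt-TRNL2, the other leucine tRNA, had 36.6% and 32.8% in PUS1KO against 8.15% and 4.88% in WT (adjusted p = 2.75e-05). Position 32 of mt-TRNC had 18.7% and 18.2% in PUS1KO against 7.07% and 9.21% in WT (adjusted p = 2.01e-06). The mt-TRNL2 rise lost its call without WT replicate 2 (adjusted p = 0.0509) and the mt-TRNC rise was under 10 points without WT replicate 1 (9.20 points). The reads covering these sites moved as well: relative to the median site, treated coverage was 16.3 times that of WT at mt-TRNL2 and 5.41 times at mt-TRNC, and untreated coverage 0.899 and 1.46 times. Its part in the result was not tested.

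Cytosolic tRNA lost most of its Ψ at 27 and 28 as well. Of the 131 sites tested at these positions, 105 were lower by at least 10 points (16% of all 701 cytosolic sites were) and 126 had at most 50% of the WT level left (18.1% of all sites did). Their mean level was 6.55% ± 0.0400 in PUS1KO and 38.003% ± 0.0626 in WT (SD of the 2 library means), with medians of 3.07% and 36.6%. The median share left was 12.8%, against 100.1% over all cytosolic sites tested. Position 27 had 46 lower of 46 and position 28 had 59 of 85, and the median share left was 13.2% at 27 and 12.2% at 28.

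The deepest falls in points were at sites with high WT levels. Position 27 of tRNA-Lys-CTT-3, a lysine tRNA, had 10.4% and 10.6% in PUS1KO, against 92.4% and 92.5% in WT. Position 28 of the glutamine tRNA tRNA-Gln-TTG-3 had 9.93% in both PUS1KO libraries, against 77.3% and 77.5% in WT. The arginine tRNA tRNA-Arg-TCG-6 had 7.24% and 6.96% in PUS1KO at position 27, against 71.9% and 76.0% in WT. In these tRNAs the PUS1KO remainder was well above the untreated libraries, where PUS1KO had 0.264%, 0.290% and 0%. Position 28 of tRNA-Gln-CTG-2 differed by -63.6 points, that of the valine tRNA tRNA-Val-TAC-4 by -59.1 and position 27 of tRNA-Lys-TTT-6 by -55.8 (adjusted p 2.11e-09 to 1.29e-06).

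Sites that were low in WT could lose most of their level without a 10-point difference. At position 28 the histidine tRNA tRNA-His-GTG-1 only just passed that limit and was called lower, with a difference of -10.7 points. It had 0.591% and 0.565% in PUS1KO, against 11.3% and 11.2% in WT, which left 5.15% (95% interval 4.84 to 5.47%). The threonine tRNA tRNA-Thr-TGT-2 had 0.475% and 0.498% in PUS1KO and 9.54% and 9.75% in WT, and the serine tRNA tRNA-Ser-CGA-2 had 0.774% and 0.726% in PUS1KO and 6.42% and 6.98% in WT. All PUS1KO values of these 3 tRNAs were under 1%. The asparagine tRNA tRNA-Asn-GTT-3 had 2.72% and 2.75% in PUS1KO and 6.42% and 6.92% in WT, with an adjusted p of 4.66e-05. The cysteine tRNA tRNA-Cys-GCA-17 had 1.98% and 2.21% in PUS1KO and 6.71% and 5.59% in WT, but averaged 1.64% in PUS7KO and 1.55% in TRUB1KO. Of the 37 tested sites with a WT level under 20%, 36 had at most 50% left and 12 were lower by 10 points. These 36 include 11 sites of tRNA-Cys-GCA, that of tRNA-Cys-GCA-17 among them, at which the PUS1KO level was not at or under 50% of the level in PUS7KO or TRUB1KO. The level of tRNA-Leu-TAA-4, a leucine tRNA with 1.56% and 0.394% in PUS1KO and 5.81% and 5.33% in WT, rests on 465 to 769 reads, and its call was lost without PUS1KO replicate 2 or either WT library (adjusted p 0.0590 to 0.0857).

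Isoacceptors, the tRNAs that share an anticodon, differed in what was left. The median share left was 2.15% over 6 sites of tRNA-Lys-TTT at position 27 and, at position 28, 2.98% over 6 sites of tRNA-Ser-GCT, 3.78% over 5 of tRNA-Thr-TGT, 3.94% over 4 of tRNA-Ser-AGA and 4.50% over 7 of tRNA-Gln-CTG. Intermediate medians were 10.2% over 8 sites of tRNA-Ile-AAT, 11.4% over 7 of tRNA-Lys-CTT and 21.3% over 5 of tRNA-Trp-CCA, all at position 27. At the upper end, tRNA-Val-AAC had 28.5% over 4 sites, tRNA-Cys-GCA 30.2% over 16, tRNA-Val-CAC 41.6% over 7 and tRNA-Arg-CCT 69.3% over 2, at position 28. At position 27, tRNA-Arg-CCG had 31.02% over 2 sites and tRNA-Ile-GAT 50.04% at 1. The lysine isoacceptors differed from each other: tRNA-Lys-CTT had medians of 10.51% in PUS1KO and 92.5% in WT, and tRNA-Lys-TTT 1.137% in PUS1KO and 50.9% in WT. That difference between isoacceptors was not tested. Sites of one isoacceptor differ by few bases, and whether the authors let a read count for several of them is not given, so they are not independent.

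**Figure D2:**
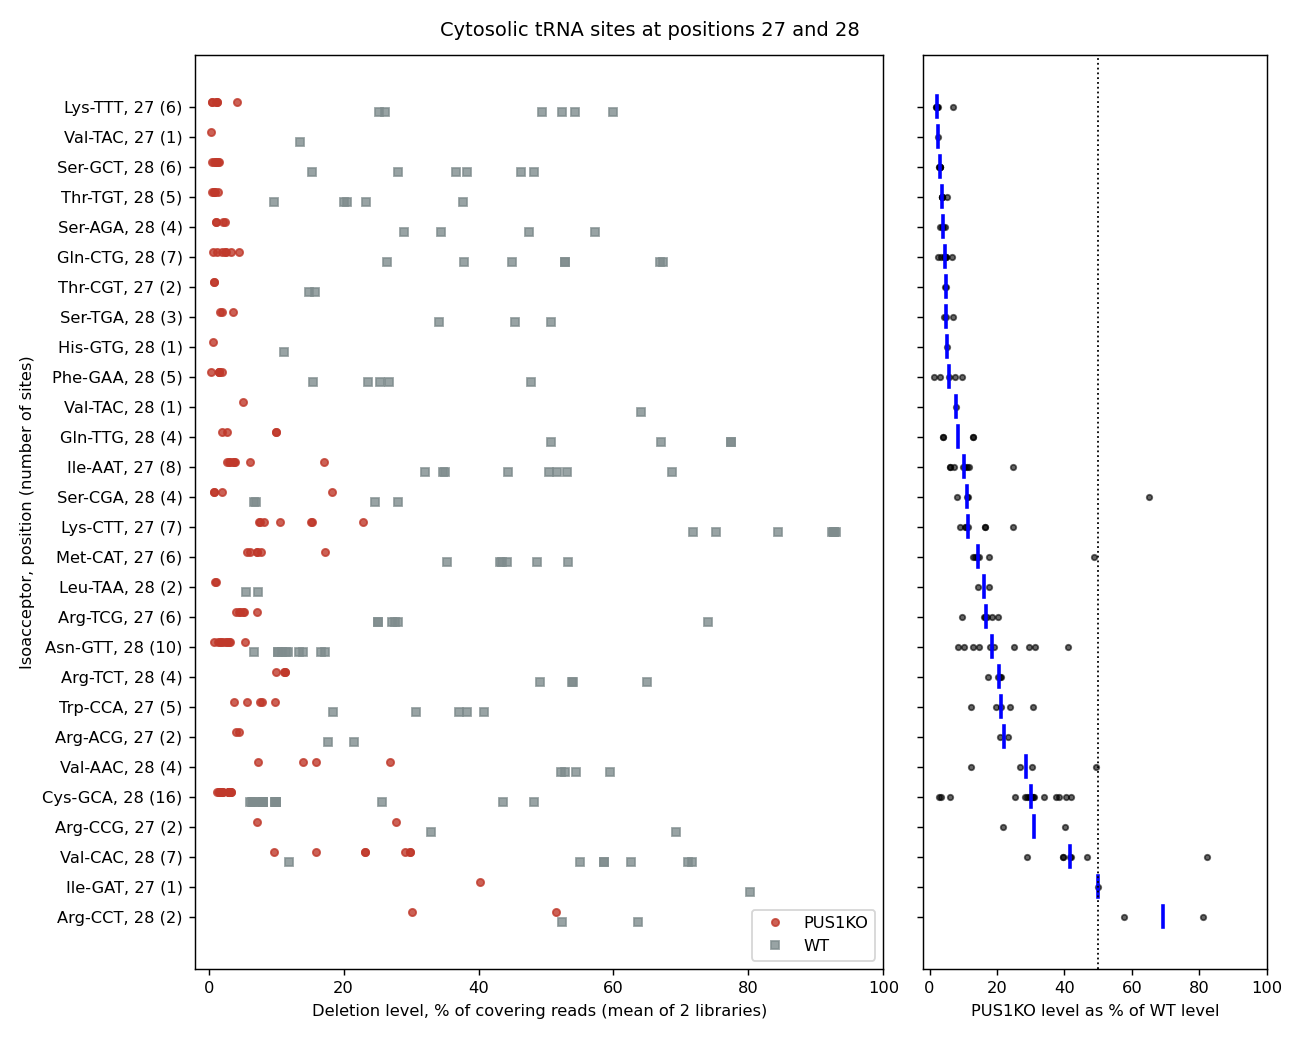
Left, mean deletion level (percent of covering reads) at each cytosolic site of positions 27 and 28, PUS1KO as circles above WT as squares, one row per isoacceptor and position. Right, the PUS1KO level as a percentage of the WT level, with the median as a blue bar and 50% dotted; medians run from 2.15% for tRNA-Lys-TTT to 69.3% for tRNA-Arg-CCT.

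At position 28 the share left differed with how closely the deletion was placed. At 30 sites with the deletion on 1 base, the median share left was 3.94% and the highest 12.8%. At the 55 sites where the tables give a span of 2 or 3 bases, the median was 26.7% and the highest 82.3%. The PUS1KO and WT medians were 1.46% and 41.6% at single bases, and 3.003% and 16.6% at spans. Each isoacceptor at position 28 had all its sites in one of these groups, so placement and isoacceptor cannot be told apart. The spans include all 16 sites of tRNA-Cys-GCA, among them the 11 described above. The 5 sites of tRNA-Phe-GAA are also spans, but kept only 1.45% to 9.51%. This contrast between sites was not tested.

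More than 50% was kept at 5 of the 131 sites. Position 28 of tRNA-Arg-CCT-4 had 51.2% and 51.7% in PUS1KO, against 63.5% and 63.6% in WT, or 81.0% left (95% interval 79.8 to 82.3%, adjusted p = 7.69e-06). That of tRNA-Arg-CCT-3 had 30.2% and 30.1% in PUS1KO and 52.6% and 52.2% in WT, or 57.5% left. Both fell, on 9368 reads or more per library. The serine tRNA tRNA-Ser-CGA-3 had 17.4% and 19.2% in PUS1KO and 26.5% and 29.7% in WT, a difference of -9.80 ± 1.51 points (SE, adjusted p = 0.00385). The isoleucine tRNA tRNA-Ile-GAT-1 lay at the limit, with 39.4% and 40.9% in PUS1KO and 78.9% and 81.7% in WT at position 27, on 57 and 60 WT reads. At tRNA-Val-CAC-14, with 10.0% and 9.46% in PUS1KO and 13.1% and 10.6% in WT, the difference of -2.10 points did not pass (adjusted p = 0.134). It depended on the setting: the adjusted p was 0.0299 with the replicate block, 0.0231 without WT replicate 2 (-3.31 points) and 0.241 without WT replicate 1 (-0.886 points). Just inside the limit were position 28 of tRNA-Val-AAC-2, at 27.5% and 26.3% in PUS1KO and 53.9% and 55.01% in WT, and position 27 of the methionine tRNA tRNA-Met-CAT-1, at 17.1% and 17.3% in PUS1KO and 37.2% and 33.3% in WT.

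The PUS7KO and TRUB1KO cells, HEK293T cells that lack another tRNA Ψ synthase, allow the same sites to be compared without the WT libraries. The PUS1KO libraries stay the same, so sites chosen as lower or higher against WT are not checked independently. Of the 131 sites at 27 and 28, PUS1KO was lower by 10 points at 105 of the 130 tested against PUS7KO and at 107 of 131 against TRUB1KO, where 16.8% of all 702 sites were lower in each comparison. Among the 104 WT-based falls tested in both, 102 were lower than in both other knockouts. Position 27 of tRNA-Lys-CTT-3 averaged 10.51% in PUS1KO, 92.0% in PUS7KO and 92.6% in TRUB1KO. Of the 125 sites, at all WT levels, with at most 50% of WT left and tested in both, 109 also had at most 50% of both other knockouts. Among all tested sites at 27 and 28, 111 of 130 passed the 50% rule against PUS7KO and 114 of 131 against TRUB1KO. The share over all cytosolic sites is not given for this rule.

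Most of the exceptions were cysteine tRNAs. Position 28 of tRNA-Cys-GCA had 16 tested sites, all with at most 50% of WT left, yet 11 of them passed that rule against neither other knockout. These 11 had 1.94% to 3.37% in PUS1KO, 1.64% to 3.37% in PUS7KO and 1.55% to 3.18% in TRUB1KO, and 6.15% to 9.99% in WT. In these 11, WT stood apart from all 3 knockouts. Only 4 of the 16 passed against both, among them tRNA-Cys-GCA-19, which averaged 1.58% in PUS1KO, 37.6% in PUS7KO, 43.7% in TRUB1KO and 48.2% in WT. The number of reads at position 28 moved with this. As a percentage of the reads at position 39 of the same 15 tRNAs, its median was 92.3% and 93.5% in the treated PUS1KO libraries, 76.2% and 70.2% in PUS7KO, 71.8% and 73.0% in TRUB1KO, and 15.7% and 16.5% in WT. Untreated libraries had 95.05% in PUS1KO and 94.4% in WT. The median untreated deletion level at position 28 of these tRNAs also differed, at 0.556% in PUS1KO, 0.552% in PUS7KO, 0.687% in TRUB1KO and 0.0729% in WT. Wild type and the knockouts come from separately deposited tables, and a difference in how they were made cannot be told apart from one between the cells at these sites. Without tRNA-Cys-GCA, 110 sites at 27 and 28 had at most 50% of WT left.

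**Figure D3:**
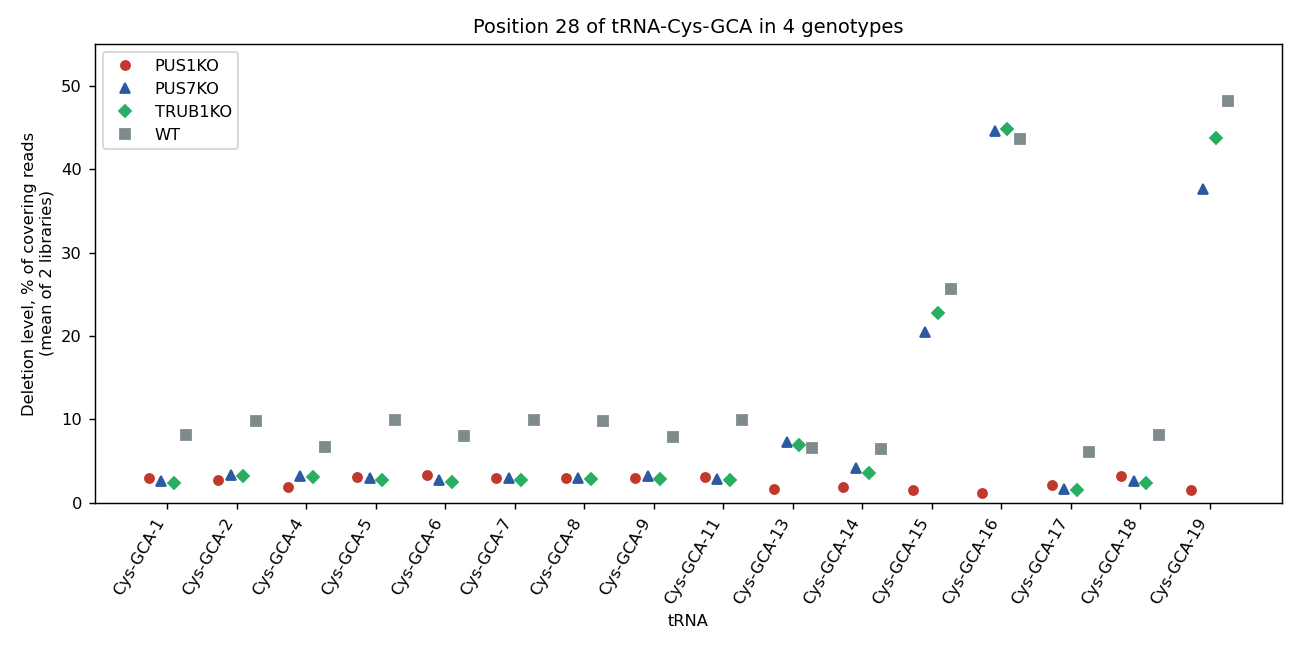
Mean deletion level (percent of covering reads, 2 libraries each) at position 28 of 16 tRNA-Cys-GCA members in PUS1KO, PUS7KO, TRUB1KO and WT, from left to right within each tRNA. In 11 members all 3 knockouts lie below WT at 3.37% or less; in tRNA-Cys-GCA-13, -15, -16 and -19 PUS1KO alone is low.

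Treated PUS1KO libraries also had more covering reads at 27 and 28. Relative to the median site, the 131 sites had 2.22 and 2.24 times the mean WT coverage in the treated PUS1KO libraries, and the 570 other sites 0.952 and 0.946 times. The untreated PUS1KO library had 1.01 times the WT coverage at 27 and 28, unlike the treated libraries. In treated PUS7KO libraries the value was 1.05 and 1.10 times, and in TRUB1KO 0.968 and 0.944 times. Leaving out tRNA-Cys-GCA, coverage was more than 2 times that of WT at 63 of 115 sites in PUS1KO, 11 in PUS7KO and 3 in TRUB1KO. The 5 phenylalanine tRNAs tRNA-Phe-GAA had a median of 17.6 times in PUS1KO: tRNA-Phe-GAA-6 had 7838 and 7122 reads in PUS1KO, against 165 and 175 in WT, with 1.43% and 1.57% deleted in PUS1KO and 54.5% and 41.1% in WT. Levels are shares of the covering reads, and the part of this shift in the falls was not tested. Among the 25 sites at 27 and 28 where treated coverage, taken relative to untreated coverage, moved by less than 1.5 times, 23 were lower and 23 had at most 50% left, with a median of 24.8%. The 106 others had 82 lower, 103 with at most 50% left and a median of 11.8%.

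**Figure D4:**
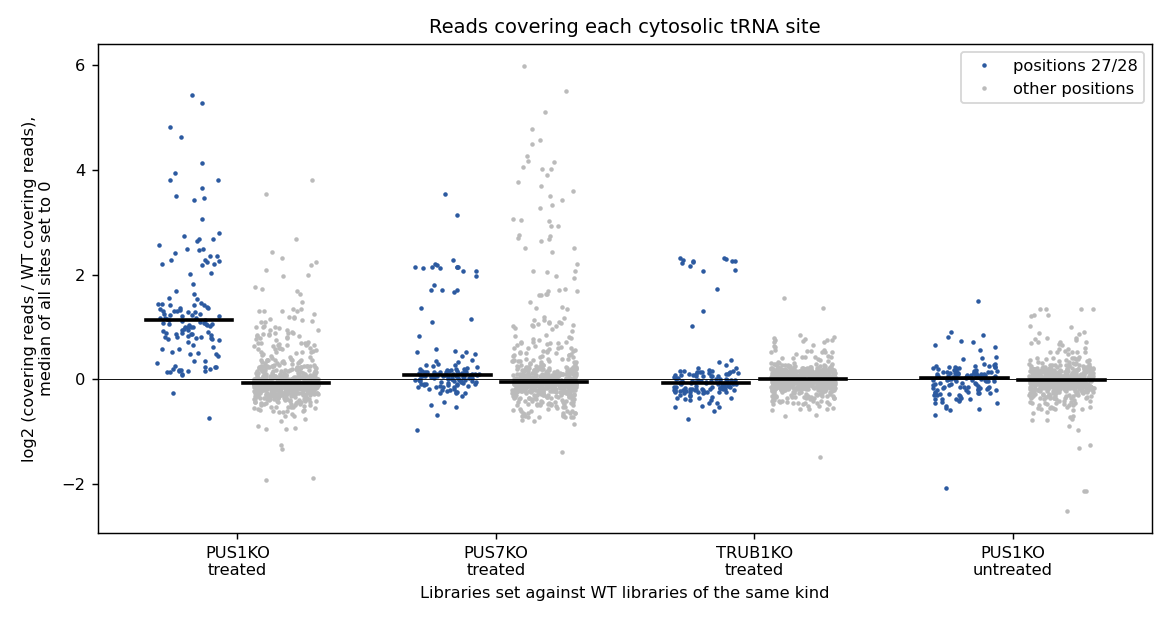
Reads covering each cytosolic site as log2 of the ratio to WT libraries of the same kind, with the median of all sites set to 0, for positions 27/28 (blue) and others (grey); black bars are medians. Treated libraries are drawn as the log2 mean of the 2. Only treated PUS1KO libraries, of the 4 sets drawn, have a 27/28 median far from 0, at 2.20 times WT on a linear scale.

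Some other sites of the anticodon stem and loop were higher in PUS1KO, 46 of the 197 tested outside 27 and 28. Outside 27 and 28, 54 cytosolic sites were higher in PUS1KO (7.7% of sites tested) and 15 had at least 2 times the WT level (2.14%), and 46 of the 54 and all 15 lay in the anticodon arm. Of the 105 arm sites on tRNAs with a listed 27 or 28 site, 42 were higher and 2 lower, with a median difference of 5.72 points. On tRNAs with none, 4 of 92 were higher and 0 lower, with a median of 1.22 points. Over all 570 sites outside 27 and 28 the median difference was 0.48 points. A test of that contrast over tRNAs was not run, because isodecoders share sequence and libraries.

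Position 30 of the isoleucine tRNA tRNA-Ile-AAT rose at 8 of 8 members. The level of tRNA-Ile-AAT-4 was 57.4% and 57.5% in PUS1KO, against 15.1% and 15.4% in WT (adjusted p = 0.000152). That of tRNA-Ile-AAT-5 was 57.6% and 57.9% in PUS1KO, against 16.8% in both WT libraries. The smallest of these rises was in tRNA-Ile-AAT-12, at 48.7% and 45.7% in PUS1KO and 25.7% and 30.2% in WT (adjusted p = 0.0137). No member's genotypes overlapped, as at 80.7% of cytosolic sites and 90.9% of mitochondrial ones. On the same tRNAs position 27 had 5.99% to 24.8% of its WT level left. The 8 sites were also higher by 10 points than in both PUS7KO and TRUB1KO, where 16% and 19.4% of all sites were, and coverage moved by less than 1.5 times at 5 of them.

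Methionine and arginine tRNAs gave rises in the anticodon stem and in the anticodon itself. Position 31 of tRNA-Met-CAT rose at 5 of 6 members, with tRNA-Met-CAT-2 at 58.4% and 58.4% in PUS1KO against 28.3% and 25.9% in WT (adjusted p = 8.26e-05). The member not called, tRNA-Met-CAT-1, averaged 48.6% in PUS1KO and 44.6% in WT (adjusted p = 0.211), and was also the member that kept most at position 27. Treated coverage was 1.57 to 2.13 times that of WT at the 5 called sites, and untreated coverage 0.903 to 1.13 times. Position 36 of tRNA-Arg-TCT rose at 4 of 4 members, and that of tRNA-Arg-TCT-1 had 75.2% and 77.9% in PUS1KO against 15.5% and 14.6% in WT (adjusted p = 2.03e-05). In PUS7KO this site averaged 0.138%, and in TRUB1KO 19.8%. All 4 arginine sites were higher than in TRUB1KO. They were also higher than in PUS7KO, but its median there was 0.0374%, so that comparison could hardly fail. Their coverage moved too: tRNA-Arg-TCT-5 had 1169 and 1237 reads at position 36 in PUS1KO and 61 and 91 in WT. Treated coverage there was 3.10 to 14.0 times that of WT over the 4 members, and untreated coverage 0.747 to 1.08 times. Its part in these rises was not tested.

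**Figure D5:**
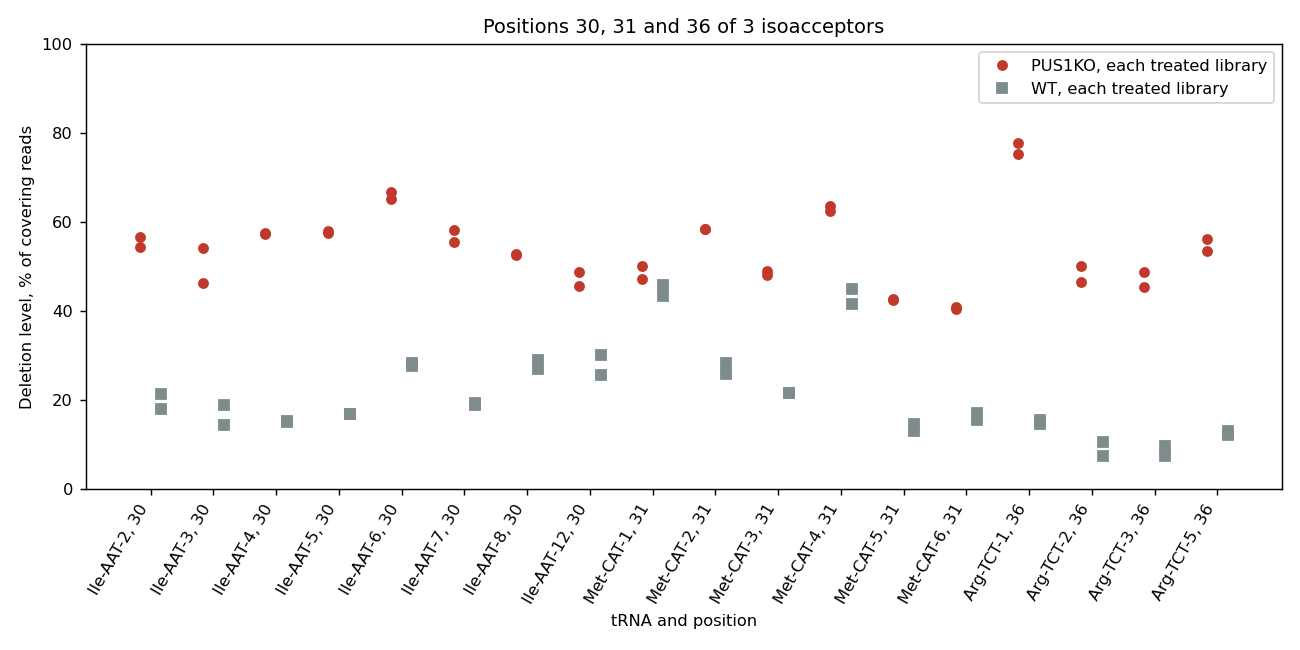
Deletion level in each treated library (percent of covering reads) at position 30 of tRNA-Ile-AAT, 31 of tRNA-Met-CAT and 36 of tRNA-Arg-TCT, PUS1KO as circles left of WT as squares. PUS1KO libraries lie above WT libraries in each tRNA, by 61.5 points in tRNA-Arg-TCT-1 and by 3.98 points in tRNA-Met-CAT-1.

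At position 39, known for the PUS3 family, 27 of 118 sites were higher and 2 lower. The leucine tRNA tRNA-Leu-TAA rose at 4 of 4 members, with tRNA-Leu-TAA-4 at 82.3% and 84.2% in PUS1KO against 60.6% and 59.2% in WT (adjusted p = 0.000312). Rises were called at 5 of 6 sites of tRNA-Ser-GCT, 5 of 6 of tRNA-Lys-TTT, 3 of 5 of the tryptophan tRNA tRNA-Trp-CCA and 3 of 3 of tRNA-Phe-GAA. Of these, the 4 of tRNA-Leu-TAA, 2 of tRNA-Ser-GCT, 2 of tRNA-Trp-CCA and 2 of tRNA-Phe-GAA were also higher than in both other knockouts, and none of tRNA-Lys-TTT was. Fewer members rose in other isoacceptors, 1 of 21 sites of tRNA-Cys-GCA and 2 of 7 of tRNA-Gln-CTG. The counts were 2 of 7 for tRNA-Lys-CTT and 1 of 6 for tRNA-Arg-TCG. Over the 21 sites of tRNA-Cys-GCA the medians were 91.4% in PUS1KO and 92.5% in WT. Some of the larger rises stood beside shifts in coverage. Position 39 of tRNA-Cys-GCA-15 had 77.6% and 77.9% in PUS1KO and 37.6% and 35.8% in WT, on 1701 and 1626 reads in PUS1KO against 117 and 137 in WT. That of tRNA-Gln-CTG-7 had 88.5% and 86.6% in PUS1KO and 52.1% and 51.4% in WT, with treated coverage 3.97 times that of WT. Lysine tRNA-Lys-CTT-5 had 87.3% and 83.2% in PUS1KO and 62.1% and 62.7% in WT at the same position. For tRNA-Arg-TCG-6, with 80.5% and 74.2% in PUS1KO and 52.7% and 53.3% in WT on 55 and 30 WT reads, the adjusted p was 0.0457 and rose to between 0.100 and 0.212 without PUS1KO replicate 1 or either WT library. With the replicate block it was 0.0596. Treated coverage at this site was 6.46 times that of WT and untreated coverage 0.953 times. Its interval runs from 99.1 to 216.1% of WT.

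Rises outside the arm were few. Position 13 of tRNA-Val-TAC-3, a site of the D arm of the kind PUS7 modifies, had 78.8% and 77.6% in PUS1KO against 42.4% and 43.8% in WT (adjusted p = 0.000474). It averaged 0.0636% in PUS7KO. Its treated coverage was 1.49 times that of WT and its untreated coverage 0.957 times, and at the 3 called sites of tRNA-Val-TAC treated coverage reached 4.71 times. The part of coverage in this rise was not tested. Position 55 of tRNA-Lys-CTT-5 had 74.7% and 74.8% in PUS1KO and 53.6% and 50.9% in WT, on 110 to 178 reads, and lost its call without PUS1KO replicate 1 or 2 or WT replicate 2 (adjusted p 0.0556 to 0.0618). Position 55, the TRUB family's T-loop position, had 2 sites higher and 0 lower of 238, position 13 had 5 higher and 3 lower of 49, and positions 35 and 38 had 0 of 11 and 0 of 19. The position lists 34/36 and 30/31/32 had 6 higher of 13 and 13 higher of 24, with median differences of 11.9 and 19.5 points. None of positions 1, 26, 65 and 67, known for yeast Pus1, was among the tested sites. Of all 54 rises, 40 were higher than in both other knockouts. The rises were chosen with the same PUS1KO libraries, so counts against the other knockouts are not an independent check. PUS7KO was very low at position 13 of tRNA-Val-TAC-3 and position 36 of tRNA-Arg-TCT, so its comparison could hardly fail there. Outside positions 13 and 36, 32 of 45 rises were higher than in PUS7KO and 41 of 45 than in TRUB1KO. Over all sites, 16% and 19.4% were. Coverage moved by less than 1.5 times at 30 of the 54 rises, and 20 of those 30 were higher than in both.

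Outside 27 and 28, 7 cytosolic sites fell. Position 13 of the valine tRNA tRNA-Val-CAC-4 had 36.5% and 34.6% in PUS1KO, against 63.9% and 60.4% in WT (adjusted p = 0.000171). tRNA-Val-CAC-1 and tRNA-Val-CAC-5 were lower there by 14.7 and 14.6 points in almost the same number of reads. All 3 were lower than in TRUB1KO too, and higher than in PUS7KO, where they averaged 0.131% to 0.154%. Position 39 of the asparagine tRNA tRNA-Asn-GTT-9 had 20.8% and 21.1% in PUS1KO and 46.1% and 45.1% in WT, leaving 45.9%, and was lower than in both PUS7KO (39.05%) and TRUB1KO (33.5%). It was the one site outside 27 and 28 with at most 50% left, and its treated and untreated coverage were 0.398 and 0.175 times those of WT. Position 72 of tRNA-Arg-TCT-4 had 51.8% and 54.2% in PUS1KO and 66.3% and 68.7% in WT. Position 20 of tRNA-Asn-GTT-3 had 39.2% and 38.3% in PUS1KO and 51.4% and 54.2% in WT, but its untreated libraries had 35.7% in PUS1KO and 39.2% in WT. The weakest, position 39 of tRNA-Gln-TTG-4, had 54.01% and 52.4% in PUS1KO and 63.0% and 64.5% in WT, and its difference was under 10 points without PUS1KO replicate 2 or WT replicate 2. No 10-point difference from either other knockout was called at the sites of tRNA-Arg-TCT-4 and tRNA-Gln-TTG-4.

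The tables hold no PUS1 transcript, so the knockout itself was not checked. Median coverage of the cytosolic sites was 20475 and 19927 reads in treated PUS1KO libraries and 14202 and 14687 in treated WT libraries, and that of the mitochondrial sites 562 and 546 in PUS1KO and 444 and 656 in WT. The 2 libraries of a genotype differed by a median of 0.343 points in PUS1KO and 0.552 points in WT over the cytosolic sites. Of the listed sites, 6 missed the 20-read limit. Besides mt-TRNI and mt-TRNG, they were position 39 of tRNA-Cys-GCA-16, positions 27 and 39 of tRNA-Lys-CTT-8 and position 39 of tRNA-Phe-GAA-6. tRNA-Lys-CTT-8 had 3.03% and 11.4% of 33 and 35 reads deleted at position 27 in PUS1KO, and 69.2% and 61.9% of 13 and 21 reads in WT. Just inside it, position 28 of tRNA-Phe-GAA-4 had 0.297% and 0.388% of 1010 and 1032 reads in PUS1KO, and a mean of 23.6% of 20 and 22 reads in WT.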

How the data were processed

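Small RNA of HEK293T cells was treated with the demethylase AlkB (molar ratio 2). Each technical replicate took 300 ng and the untreated aliquot 100 ng, per the labels' protocols. The submitters' processing notes list GRCh38, SAMtools 1.14, BWA, UMI-tools 1.0.0 and cutadapt, with no order or role. How deletions, multi-mapping reads and sites were filtered is not given in the sources used here. Per the file headers, the authors' tables hold counts of reads with a deletion and of covering reads for each library and site. Wild type and each knockout have separate tables, and PUS1KO was joined to WT by tRNA name and site. Only deposited counts were used.

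The level of a site is its deletions divided by its covering reads. Sites with at least 20 reads in each treated library were tested with a quasi-binomial model, with dispersion moderated by limma 3.58.1 (squeezeVar, R 4.3.3) and kept at 1 or more, and p-values from a two-sided F test were adjusted over each table by Benjamini-Hochberg. The fit used PUS1KO and WT libraries only, or PUS1KO and one other knockout, and was tested on simulated data. Lower or higher means adjusted p under 0.05 and 10 points. Intervals (95%) of the share left come from the same model. Intervals and the limit for 0 deletions (3 deletions over the reads of both libraries) cover counting error and library spread only. Coverage ratios were set to 1 at the median tested site.

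Named sites are, at 27/28, the 6 largest falls, the 6 lowest WT levels with at most 50% left and the 6 largest shares left, each with at most 1 per isoacceptor and position; every other fall; the 10 largest rises by the same limit; and every changed or 27/28 mitochondrial site. Further members named beside coverage, isoacceptors or other knockouts were chosen after their values were seen. The members, position lists and thresholds were chosen with earlier results of these data known.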

Additional observations from a re-analysis of the deposited data

How the results depend on the processing

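The counts of called sites against WT and the named sites were recomputed with 100 reads as the minimum, the untreated level subtracted, limma on percentage points, Fisher's exact test on summed counts, other thresholds and each treated library left out, and cytosolic counts also with isodecoders summed. The counts against PUS7KO and TRUB1KO had the read minimum, Fisher's test, the block and left-out libraries only. Medians by isoacceptor, by deletion span and by tRNA were not recomputed. Replicate numbers mark technical pairs that the labels do not link across genotypes, and the correlation of replicate differences was -0.206 (cytosolic) and -0.0216 (mitochondrial), so pairing is not shown. With the replicate as a block, 112 cytosolic sites were lower, 53 higher and 127 had at most 50% left; the crossed pairing, added after seeing the data, gave 112, 52 and 127. No named site reversed. With a 20-point difference or 4 times, 24 cytosolic sites were higher, 4 reached the fold and 1 mitochondrial site was higher; with 5 points, 4 mitochondrial sites were. Leaving out single libraries gave 1 to 2 mitochondrial rises. Isodecoders summed leave fewer units: 27 lower, 12 higher, 27 with at most 50% left (26 at 27/28) and 2 doubled. Restricted, after seeing the data, to sites whose coverage moved by less than 1.5 times, which leaves fewer sites, 28 cytosolic sites were lower, 30 higher, 23 with at most 50% left (23 at 27/28) and 4 doubled, and 4 mitochondrial sites lower, 0 higher and 5 with at most 50% left (3 at 27/28). Levels of WT sites with under 100 reads are limited by depth.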
